A study of Mus musculus with 20 samples.

Results

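The genes described here encode the constitutive proteasome: the subunits of its catalytic core and of its regulatory particle, the chaperones that assemble both, and the activators that cap the core. Members were chosen by gene symbol alone, as every symbol made of Psma, Psmb, Psmc, Psmd, Psme, Psmf or Psmg followed by a number, with the inducible catalytic subunits Psmb8, Psmb9 and Psmb10 left out. The rule found 45 of the 49315 genes in the table. By textbook role they fell into 7 core alpha subunits, 7 core beta subunits, 9 subunits of the base of the regulatory particle, 8 subunits of its lid, 7 assembly factors, 5 activators or regulators of the core, and 2 genes known for their restriction to other tissues, Psma8 and Psmb11.

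The proteasome is the main protease of the cytosol and nucleus for proteins tagged with ubiquitin. Its core is a barrel of alpha and beta rings with the active sites facing inwards, and its regulatory particle recognises the tagged protein, removes the ubiquitin chain and feeds the unfolded protein into the barrel. Transcription of the subunits is known to be coordinated, in mammals chiefly through NRF1 (encoded by Nfe2l1), which binds antioxidant response elements, the same kind of DNA motif that the related factor NRF2 (Nfe2l2) binds.

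Liver RNA was measured in 20 mice of a DIO-NASH model, in which a diet brings on obesity and a fatty liver disease with inflammation. Animals of both groups were kept on the AMLN diet, so no group on another diet enters these comparisons, and the labels give no strain, sex or age. For 8 weeks, 10 mice received the vehicle (HEC 1%) and 10 received S217879 by mouth once daily at 30 mg/kg; the series' title places the compound's action at the interaction between NRF2 and KEAP1, the protein that keeps NRF2 low. Each library is 1 animal. The liver label was checked against 4 hepatocyte markers found in the table, whose TPM (a share of the library's transcripts, corrected for gene length) summed to between 25979.9 and 60086 in vehicle and between 32659.8 and 52704 in S217879 livers. All 3 muscle markers and both testis markers stayed under 1 TPM on average, and the testis gene Tnp1 was at 0 in every library. In each library, 7 classical NRF2 targets summed to between 1519 and 3303 TPM in vehicle and between 20733 and 30566 TPM in S217879 livers, so every treated library stood apart from every vehicle library in this check of the labels. Most of these sums came from Gstm1, with means of 2013 TPM in vehicle and 23950 TPM in S217879 livers.

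Libraries differed in a way that bears on all of the TPM below. Values of 4 short or ribosomal-RNA-type gene models (Gm23935, Gm24270, Gm42418 and Mir6236) took between 17.4% and 58.2% of the TPM of a vehicle library and between 14.1% and 38.1% of an S217879 library. In vehicle replicates 6 and 7 that share was 58.2% and 50.7%, and the proteasome members together took 0.162% and 0.184% of the TPM there, against 0.260% to 0.327% in the other 8 vehicle libraries and 0.241% to 0.366% in S217879 libraries. Every result is therefore given both as deposited and after median-of-ratios scaling, which divides each library by the median, over the 19481 genes above 0 in all libraries, of its ratio to the geometric mean library. This scaling sets the typical gene equal between libraries and thus reports a member against the typical gene. Its factors ran from 0.727 to 1.24 in vehicle and from 0.844 to 1.15 in S217879 libraries. It lowered the median coefficient of variation of the members between vehicle livers from 20.9% to 8.14%, and between S217879 livers from 12.6% to 7.83%.

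As a whole, the constitutive proteasome genes stood slightly higher in S217879 livers relative to the typical liver gene, but their absolute direction in TPM depended on the scaling. Of the 45 members, 44 reached the minimum of a mean of 1 TPM used for testing, and Psmb11 did not. As deposited, 2 members rose (Psmb5 and Psmd5), 2 fell (Psmd8 and Psmg4) and 40 passed in neither direction, at an adjusted p under 0.05 in limma over all 13401 genes tested; among all genes 6.07% rose and 23.5% fell. No member's groups separated completely as deposited, against 1.84% of genes with all S217879 livers higher and 1.89% with all lower. The members' median log2 difference as deposited, S217879 minus vehicle, was 0.12, while that of all genes tested was -0.12. An unadjusted p under 0.05 in limma was reached by 8 members, counting both directions. The share of all genes under that threshold was not counted. It cannot be below the 6.07% and 23.5% called after adjustment.

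After median-of-ratios scaling, 39 members rose, the same Psmd8 and Psmg4 fell, and Psmd9, Psmd10 and Psma8 passed in neither direction. The share of all genes called higher was then 30.8% and of those called lower 22.7%. Groups did not overlap for 10 members with S217879 higher (Psma4, Psma6, Psmb1, Psmb2, Psmb5, Psmb7, Psmd4, Psmd5, Psmd7 and Psme3) and for 1 with S217879 lower (Psmd8), where all genes gave 8.66% and 4.10%. The members' median log2 difference was 0.27 and that of all genes 0.02. Measured against the all-gene median, the members stood 0.24 higher as deposited and 0.25 higher after scaling, and in both cases 41 of the 44 were above that median. The size of this excess depended on which genes made up the reference. Raising the minimum from 1 to 5 TPM left 43 members and 8436 genes. The all-gene medians were then -0.08 as deposited and 0.07 after scaling, and the excess was 0.20 in both. Of the 43, 39 were above the all-gene median in both cases. With no minimum the excess was 0.15 as deposited and 0.28 after scaling. Genes matched to the members in level were not compared.

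**Figure D1:**
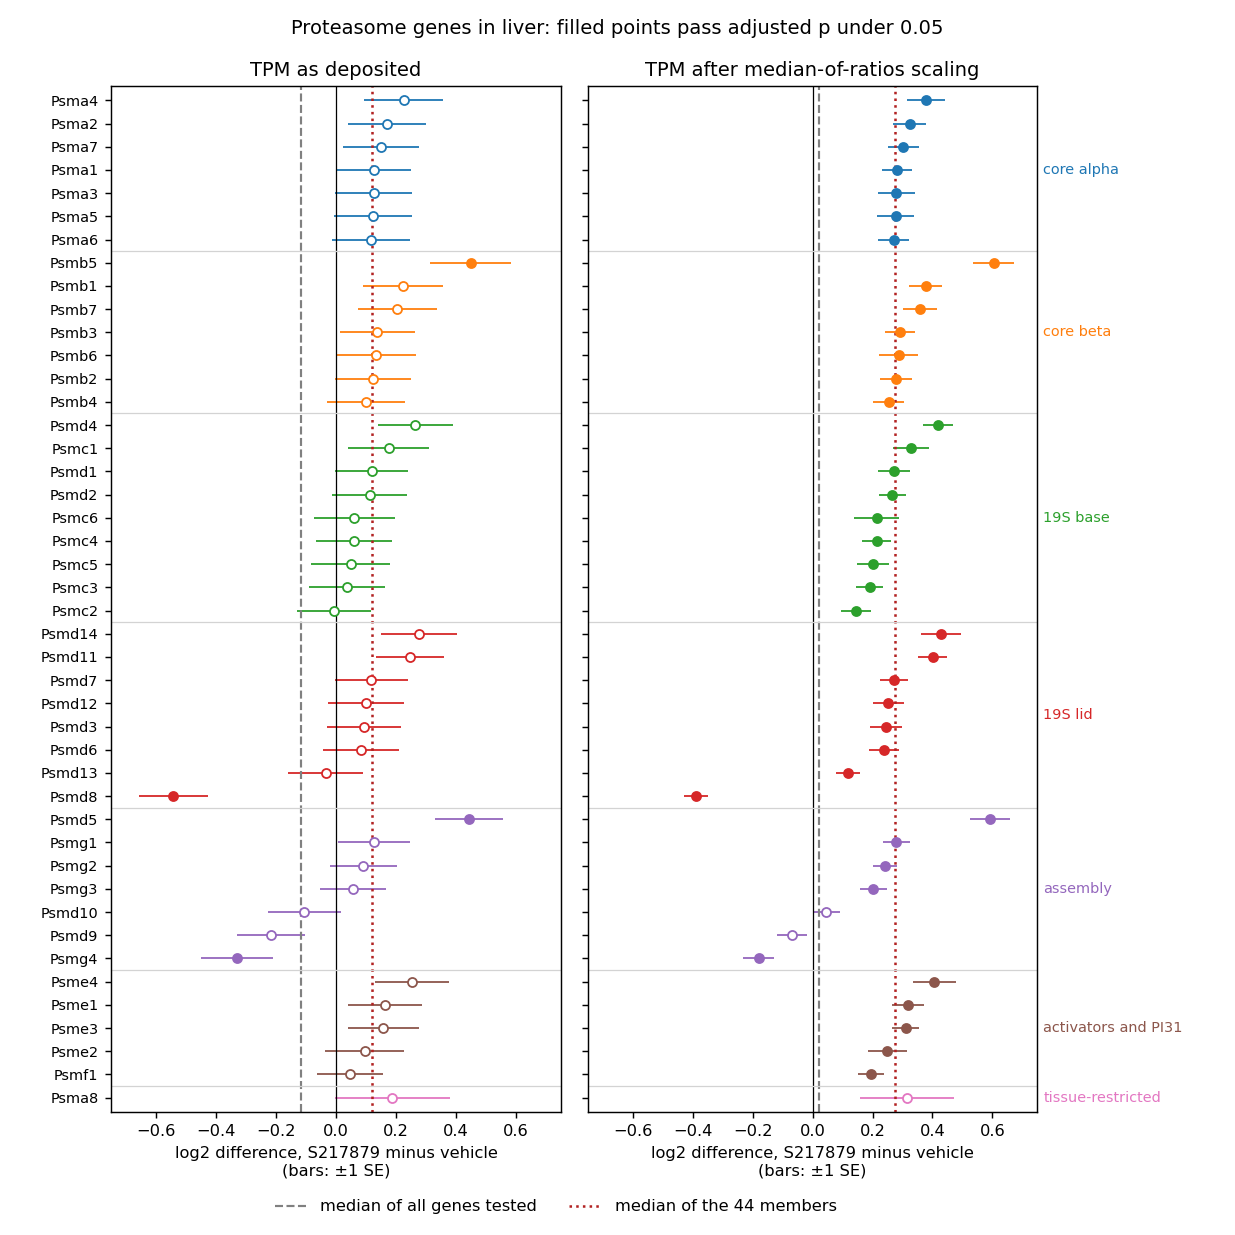
Log2 difference (S217879 minus vehicle, 10 livers each) of the 44 tested members on the x axis, ordered by role, with bars of 1 standard error; the left panel uses TPM as deposited and the right panel TPM after median-of-ratios scaling. Filled points pass an adjusted p under 0.05: 4 on the left and 41 on the right. The dashed line marks the median of all genes (-0.12 left, 0.02 right) and the dotted line that of the members (0.12 left, 0.27 right); Psmd8, Psmg4 and Psmd9 lie below 0 in both panels.

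Most members lay near the members' median in the size of the shift. After scaling, 38 of the 44 tested members lay within 0.2 log2 units of the members' median. The 6 beyond it were Psmb5 and Psmd5 above, and Psmd8, Psmg4, Psmd9 and Psmd10 below. Of these 6, 4 are assembly factors, 1 is a catalytic subunit and 1 a lid subunit. The share of all genes within 0.2 log2 units of their own median was not computed, so the count of 38 has no background. Taken by role after scaling, the median log2 difference was 0.28 for the alpha ring, 0.29 for the beta ring, 0.21 for the base, 0.25 for the lid, 0.20 for assembly factors and 0.31 for activators and regulators of the core; differences between roles were not tested.

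All 7 alpha subunits form the outer rings and the gate of the core, and their differences lay close together. Their mean levels in vehicle ran from 48.3 TPM (Psma3) to 134 TPM (Psma6). As deposited none was called, with log2 differences from 0.12 to 0.23; after scaling all 7 rose, by 0.27 to 0.38. Psma4 and Psma2 had the highest differences of the ring and Psma6 and Psma5 the lowest.

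Psma4 as deposited ran from 40.8 TPM through a median of 76.2 to 87.6 TPM in vehicle and from 63.5 through 83.1 to 114 TPM in S217879 livers. These ranges overlapped, with 2 of 10 treated livers above the highest vehicle liver, and the log2 difference was 0.23 ± 0.13 (SE, adjusted p = 0.203). After scaling the vehicle livers lay between 56.1 and 72.9 and the treated livers between 74.5 and 107 scaled TPM, with no overlap and a log2 difference of 0.38 ± 0.06 (adjusted p = 3.83e-05). Psma2 went from a median of 124 to 124 TPM as deposited and from 107 to 128 scaled TPM, a scaled log2 difference of 0.32 ± 0.06. The scaled ranges of Psma2, 93.1 to 119 and 116 to 156, touched in 1 treated liver. Psma5 had medians of 72.9 and 68.5 TPM as deposited and 63.7 and 77.1 after scaling (log2 difference 0.28 ± 0.06), so the order of its medians turned with the scaling. Psma6 had medians of 144 and 145 TPM as deposited, and after scaling its vehicle livers (104 to 137) lay wholly under its treated livers (138 to 167; log2 difference 0.27 ± 0.05).

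Among the 7 beta subunits, Psmb5 had the highest difference. It encodes the subunit with the chymotrypsin-like active site, the one that proteasome inhibitors used in myeloma mainly block, and it was the most abundant member in vehicle livers, at 192 ± 42.8 TPM (SD, n = 10). As deposited its values ran from 125 through a median of 195 to 242 TPM in vehicle and from 191 through 267 to 317 TPM in S217879 livers. Of the treated livers, 8 exceeded the highest vehicle liver, and vehicle replicates 6 and 7 were the 2 lowest of all. The log2 difference was 0.45 ± 0.13, or 1.37-fold (adjusted p = 0.00919). After scaling the vehicle range of 154 to 205 and the treated range of 223 to 308 scaled TPM did not overlap, and the difference was 0.60 ± 0.07, or 1.52-fold (adjusted p = 2.74e-07). Psmb5 was called higher under all 32 alternatives to the deposited fit, which include other scalings, and all 29 alternatives to the scaled fit.

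The other active sites of the core moved less than Psmb5 in value. Psmb6, with the caspase-like site, had medians of 105 TPM in vehicle and 108 TPM in S217879 livers as deposited (60.6 to 122 against 76.1 to 123), a log2 difference of 0.13 ± 0.13 that did not pass (adjusted p = 0.483). Scaled, Psmb6 rose by 0.29 ± 0.06 (adjusted p = 0.000809), with 8 of 10 treated livers above all vehicle livers and 1 below the vehicle median. Psmb7, with the trypsin-like site, had medians of 64.8 and 69.2 TPM as deposited (33.8 to 69.6 against 52.7 to 88.8; log2 difference 0.21 ± 0.13, adjusted p = 0.247). Scaled, Psmb7 rose by 0.36 ± 0.06 (adjusted p = 2.33e-05) and its groups, 46.5 to 60.4 and 61.4 to 80.6, did not overlap. Psmb1, a beta subunit without an active site, had medians of 179 and 191 TPM as deposited and of 157 and 196 after scaling (0.38 ± 0.05). At the low end of the ring, Psmb4 differed by 0.10 ± 0.13 as deposited and by 0.25 ± 0.05 after scaling, and Psmb2 by 0.12 ± 0.13 and 0.28 ± 0.05.

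**Figure D2:**
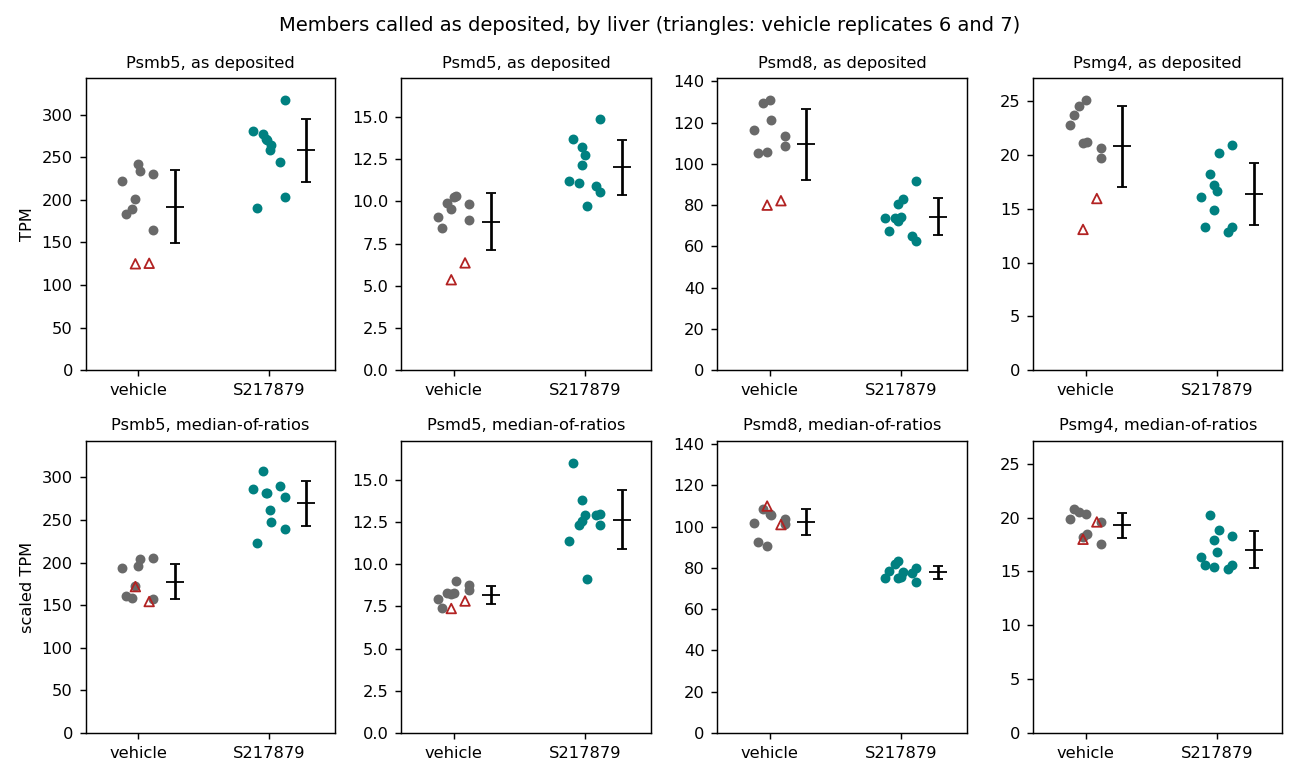
TPM of each liver for the 4 members called as deposited, with deposited values in the upper row and median-of-ratios scaled values in the lower row; points are livers, black marks are mean ± SD (n = 10), and triangles are vehicle replicates 6 and 7. In the upper row these 2 are the lowest vehicle livers of every gene shown, and after scaling the groups of Psmb5, Psmd5 and Psmd8 no longer overlap.

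Promoter sequence was examined because most members rose after scaling and because NRF1 and NRF2 bind antioxidant response elements. RefSeq promoter windows (GRCm38.p6, from 250 bases before to 50 bases after the start) were found for 37 of the 45 members, in 40 windows; not matched were Psma8, Psmb1, Psmb2, Psmb7, Psmc3, Psmd3, Psmd7 and Psmg2. The core of the element, TGACNNNGC on either strand, was present in 6 of the 40 windows (15%), against 12.4% of all 32851 promoter windows. The looser pattern TGANNNNGC, of which TGACNNNGC is a special case, was present in 23 of the 40 (57.5%), against 41.3% of all windows. These differences in share were not tested. Counted by gene, 6 and 21 of the 37 matched genes held a match. The 5 matches that end before the start are shown because one of them belongs to Psmb5, the member with the highest log2 difference, and one to Psmd9, which did not pass in either scaling. Sequences run 5′ to 3′ in the direction of the gene, and capitals mark the match, which reads as its reverse complement for Psmc6 and Psmd12.
Psmb5 (chr14:54618024-54618052, minus strand): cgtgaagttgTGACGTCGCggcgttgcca
Psmb6 (chr11:70525338-70525356, plus strand): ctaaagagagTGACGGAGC
Psmc6 (chr14:45329587-45329615, plus strand): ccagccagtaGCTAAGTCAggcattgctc
Psmd12 (chr11:107479278-107479299, plus strand): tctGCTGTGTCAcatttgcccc
Psmd9 (chr5:123228149-123228177, plus strand): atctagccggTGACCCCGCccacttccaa
The Psmb5 match lies 47 to 39 bases before the start and that of Psmd9 31 to 23 bases before it. The sixth match, of Psme4, spans its start. The genes with this match ranged in scaled log2 difference from -0.07 (Psmd9) to 0.60 (Psmb5), and Psmd5, the other member that rose as deposited, held only the looser pattern, 153 to 145 bases before its start. A match describes these letters and is not evidence of binding.

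The base of the regulatory particle holds the ring of ATPases that unfolds substrates (Psmc1 to Psmc6), its scaffold subunits Psmd1 and Psmd2, and the ubiquitin receptor Psmd4. None of these 9 was called as deposited and all 9 rose after scaling, of which Psmc2 and Psmc6 lost the call in some settings. Psmd4 had the highest difference of the base: as deposited it ran from 36.1 through 65.2 to 71.4 TPM in vehicle and from 57.6 through 69.5 to 88.0 TPM in S217879 livers (0.26 ± 0.12, adjusted p = 0.104). The scaled groups of Psmd4, 48.8 to 60.5 and 64.4 to 78.2, did not overlap (0.42 ± 0.05, adjusted p = 4.16e-07). Psmc1 came next, with medians of 146 and 157 TPM as deposited and 126 and 159 after scaling (0.33 ± 0.06).

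The lowest differences of the base were those of the ATPases Psmc3 and Psmc2. Psmc3 had medians of 85.9 and 82.6 TPM as deposited (0.04 ± 0.13, adjusted p = 0.859) and rose by 0.19 ± 0.05 after scaling, but was called lower in TPM rescaled without the ribosomal-RNA-type models (-0.11, adjusted p = 0.00885). Psmc2 had a vehicle range of 16.97 to 36.98 TPM and a treated range of 25.4 to 35.7 TPM, with medians of 32.8 and 30.0. Its log2 difference was -0.01 ± 0.12 as deposited (adjusted p = 0.971) and 0.15 ± 0.05 after scaling (adjusted p = 0.0161), and with vehicle replicates 6 and 7 left out it was called lower in the deposited values. The sign of Psmc2 thus turned with the scaling, and its calls depended on those 2 libraries: after scaling it no longer passed without them (0.10, adjusted p = 0.0586), nor with the median ratio taken over genes of at least 5 TPM in every library (0.05, adjusted p = 0.257). Psmc6, another ATPase of the ring, likewise lost its scaled call in these settings (0.16, adjusted p = 0.0770, and 0.12, adjusted p = 0.166).

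The lid, which removes ubiquitin chains, held both the subunit that fell most and 2 of the larger rises. Psmd8, a lid subunit that joins late in assembly of the regulatory particle, ran from 80.0 through 111 to 131 TPM in vehicle and from 62.4 through 73.9 to 91.7 TPM in S217879 livers as deposited. All 10 treated livers were below the vehicle median and 7 were below the lowest vehicle liver, and the 2 lowest vehicle livers were again replicates 6 and 7. The log2 difference was -0.54 ± 0.12, or 1.46-fold lower (adjusted p = 0.000332). After scaling the vehicle livers (90.8 to 110 scaled TPM) lay entirely above the treated livers (73.2 to 83.4), at -0.39 ± 0.04, or 1.31-fold lower (adjusted p = 4.77e-08). Psmd8 was called lower under all 32 alternatives to the deposited fit and all 29 to the scaled fit.

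Psmd14, the deubiquitinase of the lid, and Psmd11, a scaffold subunit, were the other extreme. Psmd14 ran from 16.7 through 32.9 to 35.1 TPM in vehicle and from 29.4 through 34.7 to 48.1 TPM in S217879 livers (0.28 ± 0.13, adjusted p = 0.0953). Scaled, 9 of 10 treated livers were above every vehicle liver and Psmd14 rose by 0.43 ± 0.07 (adjusted p = 1.77e-05). Psmd11 had medians of 30.6 and 35.5 TPM as deposited (0.25 ± 0.11, adjusted p = 0.0944) and rose by 0.40 ± 0.05 after scaling (adjusted p = 8.43e-07). A near-identical transcript, A730017L22Rik, was at 3.16 TPM on average beside 32.4 TPM of Psmd11, so reads may have been split between them. Psmd13 had medians of 45.7 and 40.7 TPM as deposited (-0.03 ± 0.13, adjusted p = 0.866) and of 40 and 42.4 after scaling (0.12 ± 0.04, adjusted p = 0.0205). The scaled value did not pass when vehicle replicates 6 and 7 were left out (0.07, adjusted p = 0.0784), with the median ratio over genes of at least 5 TPM (0.02, adjusted p = 0.580) and with that over tested genes (0.08, adjusted p = 0.0580). Like Psmc2, Psmd13 was called lower in deposited values once vehicle replicates 6 and 7 were left out, so its sign turned with the scaling. Psmd13 also shares exon sequence with Sirt3 on the opposite strand, at 28.6 TPM, and whether reads were counted by strand is not given. The 4 remaining lid subunits (Psmd3, Psmd6, Psmd7 and Psmd12) differed by 0.08 to 0.12 as deposited and rose by 0.24 to 0.27 after scaling.

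The assembly factors are chaperones that guide the rings and the base together and leave before the particle is finished. Of the 7, Psmd5 rose and Psmg4 fell in both scalings; Psmg1, Psmg2 and Psmg3 rose after scaling only; and Psmd9 and Psmd10 passed in neither.

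Psmd5, a chaperone of the ATPase ring that is known to hold back its joining to the core, ran from 5.36 through 9.32 to 10.3 TPM in vehicle and from 9.72 through 11.7 to 14.9 TPM in S217879 livers. All 10 treated livers were above the vehicle median and 9 were above the highest vehicle liver; the exception was S217879 replicate 9. The difference was 0.44 ± 0.11, or 1.36-fold, as deposited (adjusted p = 0.00235) and 0.59 ± 0.07, or 1.51-fold, after scaling (adjusted p = 2.4e-07), when the groups no longer overlapped (7.37 to 8.99 against 9.10 to 16.01). The call for Psmd5 held under all 32 and all 29 alternatives.

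Psmd9 and Psmd10 are the other chaperones of the ATPase ring. Psmd9 had medians of 11.2 TPM in vehicle and 9.18 TPM in S217879 livers, and all 10 treated livers were below the vehicle median (-0.22 ± 0.11, adjusted p = 0.152); after scaling its difference was -0.07 ± 0.05 (adjusted p = 0.260). Psmd10, also studied as the oncoprotein gankyrin in liver, had medians of 19.3 and 16.9 TPM (-0.11 ± 0.12, adjusted p = 0.554) and after scaling of 16.9 and 17.5 (0.05 ± 0.04, adjusted p = 0.397). Their ranges overlapped in both scalings, 8.63 to 11.1 against 8.40 to 11.5 scaled TPM for Psmd9 and 14.4 to 18.6 against 16.1 to 19.1 for Psmd10. Both were called lower in deposited values without vehicle replicates 6 and 7, and Psmd9 also without either of them alone (adjusted p = 0.0220 and 0.0422). In TPM rescaled without the ribosomal-RNA-type models both were called lower (-0.36 for Psmd9 and -0.25 for Psmd10). Psmd9 was also called lower after scaling by the median ratio over genes of at least 5 TPM in every library (-0.16, adjusted p = 0.00369). For these 2 chaperones neither the call nor, for Psmd10, the sign was thus independent of the scaling.

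The Psmg factors work in pairs on the alpha ring, Psmg1 with Psmg2 and Psmg3 with Psmg4. Psmg1 had medians of 27.9 and 28.1 TPM as deposited (0.13 ± 0.12) and of 24.1 and 28.7 after scaling, where it rose by 0.28 ± 0.05 (adjusted p = 2.78e-05). Psmg2 had medians of 17.3 and 17.4 TPM (0.09 ± 0.11) and rose after scaling by 0.24 ± 0.04 (adjusted p = 4.05e-05). Psmg3 had medians of 7.83 and 7.39 TPM (0.06 ± 0.11) and rose after scaling by 0.20 ± 0.05 (adjusted p = 0.000884). Its partner went the other way. Psmg4 ran from 13.1 through 21.2 to 25.1 TPM in vehicle and from 12.8 through 16.4 to 20.96 TPM in S217879 livers, with all 10 treated livers below the vehicle median and vehicle replicates 6 and 7 the lowest of their group. The difference was -0.33 ± 0.12, or 1.26-fold lower (adjusted p = 0.0319), and after scaling -0.18 ± 0.05, or 1.13-fold lower (adjusted p = 0.00571), with the scaled groups still overlapping (17.5 to 20.8 against 15.2 to 20.2). Psmg4 passed under 22 of the 32 alternatives to the deposited fit, with adjusted p up to 0.0713, and under all 29 to the scaled fit. It did not pass as deposited when vehicle replicate 1, 3, 5 or 10 or S217879 replicate 2, 3, 7 or 8 was left out.

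A member's level relative to its partners within the same library does not move with the scale of that library, and it is given here, as a description, for the 4 members called as deposited. Psmb5 stood at 2.40 to 3.06 times the median TPM of the 13 other core subunits in vehicle and at 2.51 to 3.93 times in S217879 livers, where 9 livers were above every vehicle liver. Psmd8 stood at 2.19 to 3.25 times the median of the 7 other lid subunits in vehicle and at 1.498 to 1.91 times in S217879 livers, without overlap. Psmd5 went from 0.479 to 0.532 times the median of the 6 other assembly factors in vehicle to 0.511 to 0.998 times, and again S217879 replicate 9 was the lowest treated liver. Psmg4 went from 1.33 to 1.75 times the median of the same kind in vehicle to 0.958 to 1.42 times, with 9 treated livers below every vehicle liver. Median ratios were 2.85 and 3.48 for Psmb5, 2.53 and 1.66 for Psmd8, 0.504 and 0.757 for Psmd5, and 1.54 and 1.13 for Psmg4. These genes were picked after their values were seen, so no test is given.

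**Figure D3:**
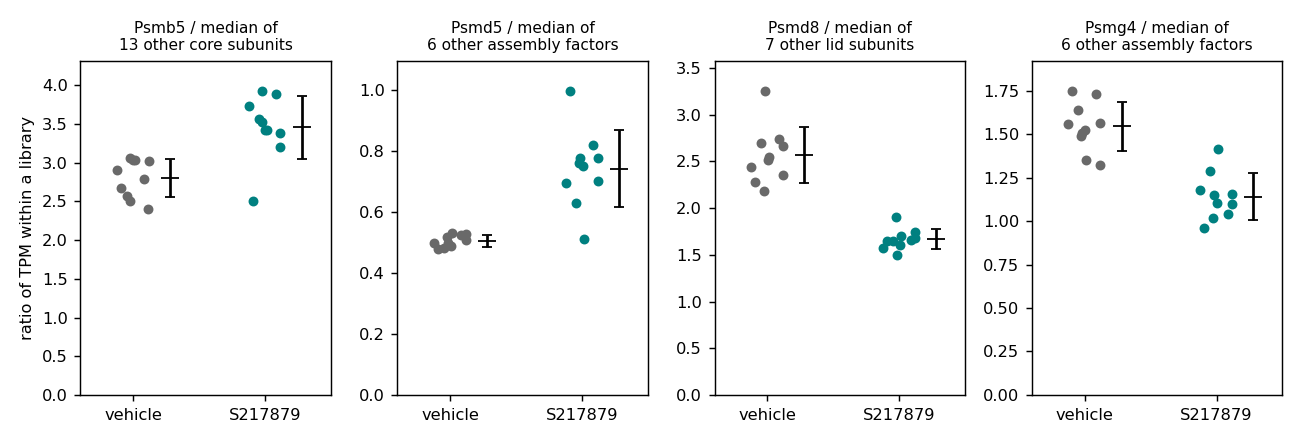
TPM of 4 members divided, within each library, by the median TPM of the other members of the same role (13 core, 6 assembly or 7 lid genes); points are livers and black marks are mean ± SD (n = 10). The Psmd8 panel shows no overlap, 2.19 to 3.25 in vehicle against 1.498 to 1.91 in S217879 livers, and in each of the others the groups share part of their range.

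Activators open the core without the regulatory particle, and PI31 (Psmf1) is a small protein first described as an inhibitor of the core. None of these 5 genes was called as deposited and all 5 rose after scaling. Psme1 and Psme2 encode the paired, interferon-inducible activator of the cytosol. Psme1 had medians of 77.7 TPM in vehicle and 80.3 TPM in S217879 livers (43.2 to 85.9 against 63.3 to 95.5; 0.16 ± 0.12, adjusted p = 0.337) and rose by 0.32 ± 0.05 after scaling (adjusted p = 3.07e-05). Psme2 had medians of 73.7 and 69.8 TPM (0.10 ± 0.13, adjusted p = 0.624) and rose by 0.25 ± 0.07 after scaling (adjusted p = 0.00288). A 99.4% identical transcript, Psme2b, was at 12.4 TPM, so the level of Psme2 is uncertain to that extent.

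Psme3, the nuclear activator, had medians of 41.7 and 43.8 TPM as deposited (0.16 ± 0.12, adjusted p = 0.338). Its scaled groups, 31.4 to 39.1 and 42.3 to 53.4, did not overlap (0.31 ± 0.05, adjusted p = 8.63e-06). Psme4, a large nuclear activator linked to histone degradation, had medians of 33.5 and 37.0 TPM (16.6 to 35.2 against 30.8 to 47.7), with 6 treated livers above every vehicle liver, and a difference of 0.25 ± 0.12 (adjusted p = 0.122) that became 0.41 ± 0.07 after scaling (adjusted p = 7.2e-05). Psmf1 had medians of 9.76 and 9.42 TPM (0.05 ± 0.11, adjusted p = 0.791) and rose by 0.19 ± 0.04 after scaling. In TPM rescaled without the ribosomal-RNA-type models Psmf1 was called lower (-0.09, adjusted p = 0.0262), so its direction turned with the scaling.

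Both tissue-restricted members had low values. Psma8, the alpha subunit of the testis proteasome, ran from 0.428 to 2.11 TPM in vehicle and from 0.770 to 2.499 TPM in S217879 livers and was not called in either scaling (adjusted p = 0.494 and 0.0974). After scaling it was called higher when vehicle replicate 2 (adjusted p = 0.0396) or S217879 replicate 9 (adjusted p = 0.0342) was left out. Psmb11, the beta subunit of the thymus proteasome, was above 0 in 1 vehicle and 2 S217879 livers, at most 0.0188 TPM, and was not tested.

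The catalytic subunits of the immunoproteasome, Psmb8, Psmb9 and Psmb10, take the places of Psmb5, Psmb6 and Psmb7 in newly assembled cores and are known to be high in immune cells and after interferon. As deposited, Psmb8 fell from a median of 30.2 to 21.8 TPM (15.4 to 36.7 against 16.7 to 27.7; -0.39, adjusted p = 0.0244), and Psmb9 fell from 16.7 to 12.1 TPM (9.73 to 21.04 against 7.93 to 16.2; -0.47, adjusted p = 0.00795). Psmb10 had medians of 49.4 and 39.2 TPM and did not pass (-0.19, adjusted p = 0.290). After scaling Psmb8 (-0.24, adjusted p = 0.0335) and Psmb9 (-0.32, adjusted p = 0.0198) still fell and Psmb10 did not pass (-0.04, adjusted p = 0.704).

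Within each library the constitutive subunit was set against the inducible one that takes its place, a ratio that does not move with the library's scale, and all 3 ratios were higher in S217879 livers. The ratio of Psmb5 to Psmb8 in TPM ran from 5.10 through 6.43 to 10.4 in vehicle and from 9.53 through 11.5 to 16.2 in S217879 livers. It overlapped in 1 treated liver only, S217879 replicate 9, and vehicle replicate 2, at 10.4, was the one vehicle liver within the treated range. The log2 difference was 0.84 (two-sided permutation test of 100000 resamples, p = 2e-05, the smallest they can give; adjusted over the 3 ratios p = 6e-05), and 10 of 10 treated livers were above the vehicle median. For Psmb6 to Psmb9 the ratio ran from 4.22 through 5.93 to 8.77 and from 7.17 through 8.99 to 12.5, a log2 difference of 0.60 (permutation p = 0.00016, adjusted 0.00024), with 6 treated livers above every vehicle liver and 10 above the vehicle median. Psmb7 to Psmb10 went from 1.14 through 1.34 to 1.77 in vehicle to 1.34 through 1.76 to 2.32 in S217879 livers, a log2 difference of 0.40 (permutation p = 0.00026, adjusted 0.00026), with 4 treated livers above every vehicle liver and 10 above the vehicle median. Vehicle replicate 2 had the highest vehicle value of all 3 ratios, 10.4, 8.77 and 1.77.

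Leukocyte markers moved beside these ratios. Of 8 such markers, 7 reached the minimum and all 7 fell in both scalings, while Itgam stayed under it. Over all genes 23.5% fell as deposited and 22.7% after scaling. The markers summed to between 813 and 1466 TPM in vehicle livers and between 629 and 892 TPM in S217879 livers, and none of the 8 was at 0. In vehicle replicate 2, the vehicle liver with the highest ratios, the sum was 967 TPM, and in S217879 replicate 9, the treated liver with the lowest value of each ratio, it was 885 TPM. In S217879 replicate 8, the treated liver with the highest value of each ratio, the sum was 684 TPM. Whether the livers share an order by sum and by ratio cannot be read from these unscaled sums. Vehicle replicate 6 had the lowest vehicle sum (813 TPM) with a Psmb7 to Psmb10 ratio of 1.34, vehicle replicate 1 the highest sum (1466 TPM) with a Psmb5 to Psmb8 ratio of 7.28, and S217879 replicate 4 the highest treated sum (892 TPM) with a Psmb5 to Psmb8 ratio of 11.5 and a Psmb7 to Psmb10 ratio of 1.98. These sums are TPM as deposited and move with the scale of the library, while the ratios do not. The median-of-ratios factor was 0.727 in vehicle replicate 6, 1.24 in vehicle replicate 1 and 1.12 in vehicle replicate 2. In S217879 replicates 4, 8 and 9 it was 1.15, 0.966 and 1.07. The order of the livers by marker sum therefore depends on the scaling, and scaled sums were not computed. The part of the markers in the ratios was not tested. In whole liver, fewer cells of a type and less RNA per cell cannot be told apart. All 4 stellate-cell markers also fell in both scalings. Of 3 endothelial markers 1 rose as deposited (Clec4g) and 2 after scaling, and of 2 tested bile duct markers 1 (Epcam) fell in both. The 4 hepatocyte markers were mixed in both scalings: 2 rose (Ttr and Serpina1c), 1 fell (Apoa1) and Alb did not pass. Over all genes 6.07% rose as deposited and 30.8% after scaling.

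**Figure D4:**
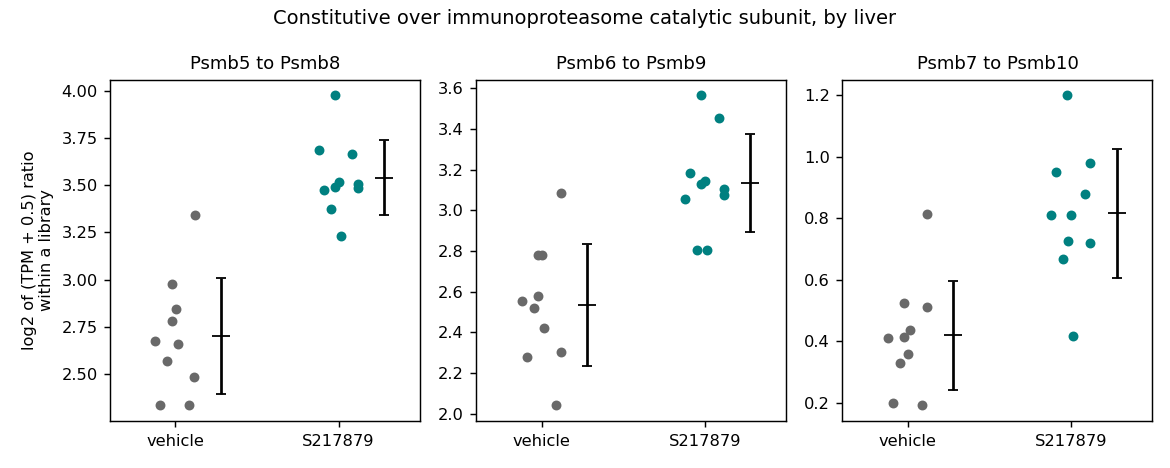
Log2 ratio of (TPM + 0.5) within each library of the constitutive catalytic subunit to the immunoproteasome subunit that takes its place (y axes differ and do not start at 0); points are livers and black marks are mean ± SD (n = 10). S217879 livers are higher on average in each panel, by 0.84, 0.60 and 0.40, and the highest vehicle liver in every panel is replicate 2.

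Genes that work with the proteasome but lie outside the symbol rule were read from lists of textbook partners. Of the 14 proteasome-associated genes found, 1 rose as deposited, 13 passed in neither direction and none fell; after scaling 11 rose and none fell, and the list's median difference was 0.07 as deposited and 0.22 after scaling. Over all genes 6.07% rose as deposited and 30.8% after scaling, with medians of -0.12 and 0.02. The one called as deposited was Ubqln2, a shuttle that carries ubiquitin-tagged proteins to the proteasome, with medians of 19.3 and 23.8 TPM (0.42, adjusted p = 0.00265; 0.57 after scaling). Pomp, the maturation factor of the core, had medians of 32.9 and 34.5 TPM (0.18, adjusted p = 0.269) and rose by 0.34 after scaling (adjusted p = 2.81e-06), when its groups did not overlap. At the low end of those that rose after scaling were Adrm1, a ubiquitin receptor (0.18), and Ube3c, a ubiquitin ligase bound to the proteasome (0.15). Sem1, a small lid subunit not covered by the symbol rule, differed by -0.21 as deposited and by -0.05 after scaling and did not pass in either.

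A list of NRF1, its relatives Nfe2l2 and Nfe2l3, and proteins that release, process, degrade or modify NRF1 had 13 tested genes; Nfe2l3 was under the minimum. As deposited 3 of the 13 fell and none rose, where 23.5% of all genes fell and 6.07% rose; after scaling 3 fell and 7 rose, where 22.7% of all genes fell and 30.8% rose. Nfe2l1 itself had medians of 73.5 and 68.4 TPM (46.6 to 79.8 against 52.4 to 82.8; -0.03, adjusted p = 0.896) and after scaling rose by 0.13 (adjusted p = 0.0290), so its sign turned with the scaling. Nfe2l2 fell in both, from a median of 56.3 to 28.1 TPM as deposited (-0.89, adjusted p = 3.08e-07; -0.73 after scaling). The other 2 that fell in both were Fbxw7, a ubiquitin ligase subunit (-0.33 as deposited), and Hcfc1, a transcriptional coregulator (-0.32 as deposited). Among those that rose after scaling, Syvn1, a ligase of the endoplasmic reticulum, and Vcp, the segregase that extracts proteins from its membrane, had the highest differences, 0.42 and 0.35.

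All 7 classical NRF2 targets rose in both scalings, with Cbr3 (5.87 as deposited) and Gstm1 (3.61) at the top and Txnrd1 (1.00) and Gclm (0.60) at the bottom. The Gclm difference as deposited, the lowest of these, was thus above that of Psmb5 (0.45), the highest of the proteasome members; this order was not tested.

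How many proteasome members were called, and in which direction, followed the scaling. In the deposited TPM without vehicle replicates 6 and 7, Psmb5 and Psmd5 rose and 6 members fell (Psmc2, Psmd8, Psmd9, Psmd10, Psmd13 and Psmg4), while 54.4% of all genes fell; the members' median was -0.04 and that of all genes -0.23. In TPM rescaled without the 4 ribosomal-RNA-type models 5 members rose and 8 fell, against 7.54% and 64.0% of all genes, and the medians were -0.02 and -0.25. Quantile normalization called 23 members higher and 2 lower, against 26.4% and 25.0% of all genes, with medians of 0.10 and 0.00498. Leaving out vehicle replicates 6 and 7 after median-of-ratios scaling left 36 members higher and 2 lower, against 26.88% and 21.02% of all genes, with medians of 0.23 and 0.02. In each of these settings the members' median was above that of all genes, by 0.19, 0.23, 0.10 and 0.21. Psmb5 and Psmd5 rose and Psmd8 fell in all of them.

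**Figure D5:**
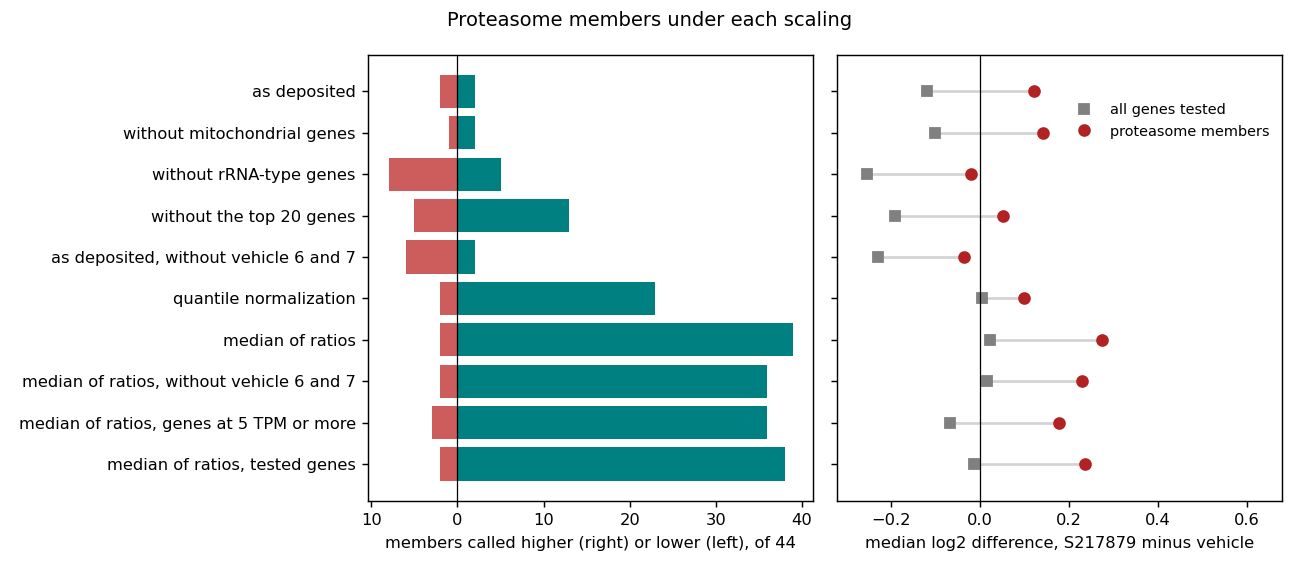
Left, members called higher (bars to the right) or lower (to the left) of 44 under 10 scalings or sets of libraries; right, the median log2 difference of the members (circles) and of all genes tested (squares) under the same settings. The number called higher runs from 2 as deposited to 39 after median-of-ratios scaling, and in every setting drawn the circle lies to the right of the square.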

How the data were processed

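Per the labels' protocols, RNA of 20 livers was purified with a kit for lipid-rich tissue and its polyadenylated part made into stranded libraries. The tools were STAR 2.5.2b, Trimmomatic 0.36, Subread 1.5.2 and its featureCounts, on the build GRCm38, per the submitters' processing notes; not given in the sources used here: settings, annotation and the handling of strand. From these the authors made and deposited TPM, summing to 1000000 per library. TPM keeps no depth, so the reads behind a value are unknown and only the spread between animals measures precision. The labels number each animal separately; nothing else says how the animals were housed or sampled.

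Values were taken as log2(TPM + 0.5), which understates changes of low genes, for the 13401 genes whose mean reached 1 TPM. S217879 was set against vehicle by limma 3.58.1 (R 4.3.3; lmFit, then eBayes with trend and robust), with Benjamini-Hochberg adjustment over all genes tested and an adjusted p under 0.05. Fits were tested on simulated data. With a simulated scale factor per library, 20% of changes of 0.5 log2 units were recovered unscaled and 53% after median-of-ratios scaling. Without that factor 53% were recovered as well. The simulated noise of each gene was its spread in the deposited values, which already holds differences of scale between libraries. These shares are therefore not the sensitivity of the fits to the real values. Smaller changes were not simulated, so a member that did not pass as deposited may still have changed. "Rose" and "fell" mean that this test was passed in the scaling named. Catalytic ratios were compared per library by permutation in scipy 1.17.1. Near-identical transcripts (at least 95% over 300 bases, blastn 2.17.0) were found for 11 members, 6 of them with a copy at 1 TPM or more; exons of 9 members overlap a gene on the opposite strand and of 3 a gene on the same strand in GENCODE M21.

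The members and lists were chosen with earlier results of these data known. Named with values were the 3 catalytic subunits, the 2 highest and 2 lowest differences of each role, all assembly factors and activators, members whose call turned with the scaling, and the 2 highest and 2 lowest called genes of each related list. One of the related lists is not reported here. Alternatives were the pseudocount, the minimum, the eBayes options, array weights, a rank test, other scalings, and leaving out each library or vehicle replicates 6 and 7. The rank test was used only for the counts of genes called and is not among the alternatives counted for single members.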

Additional observations from a re-analysis of the deposited data

Results flagged for a closer look

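In 186 sets of 10 livers (each member in each group and scaling, and the 3 ratios), 1 liver stood further from the rest than Dixon's test for outliers allows at its 95% level in 20 sets; chance marks about 1 in 20 sets, and sets of 1 library are not independent. As deposited, S217879 replicate 4 was the highest treated liver for Psma1 (77.9 TPM), Psma2 (172.7), Psma5 (90.7), Psma6 (172.5), Psmb1 (266), Psmb3 (71.6), Psmd4 (88.0), Psmd6 (60.7), Psmd13 (54.5) and Psmg3 (10.2). In that library the members took 0.366% of the TPM, the highest of the 20, and the ribosomal-RNA-type models 14.1%, the lowest. After scaling, the same liver remained apart for Psmd13 alone of these genes (47.5 scaled TPM). S217879 replicate 5 was then highest for Psma6 (167 scaled TPM), Psmd9 (11.5) and Psme2 (95.4), and vehicle replicate 6 was lowest for Psme3 (31.4). Psmb11 was above 0 in few livers, and its marked values were 0.0102 TPM (0.00876 scaled) in vehicle replicate 8 and 0.0188 TPM (0.0191 scaled) in S217879 replicate 10. The log2 ratio of Psmb7 to Psmb10 was 0.81 in vehicle replicate 2, apart from the other vehicle livers.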

How the results depend on the processing

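No paired analysis was possible because the labels number every animal separately and share no number between groups. As deposited, members called higher went from 2 to 39 with median-of-ratios scaling, 23 with quantile normalization, and 5 and 13 in TPM rescaled without the ribosomal-RNA-type models and without the 20 most abundant genes. Members called lower went from 2 to 8 and 5 in those 2 rescalings, to 6 with array weights and with vehicle replicates 6 and 7 left out, and to 1 with no minimum on TPM and without mitochondrial genes. All genes called higher went from 813 to 4123, 3536 and, without the 20 most abundant genes, 1446. All genes called lower went from 3151 to 1642 with a minimum of 5 TPM, 8023 with array weights, 7307 without vehicle replicates 6 and 7, 8576 without the ribosomal-RNA-type models and 7279 without the 20 most abundant genes. After median-of-ratios scaling, all genes called lower went from 3042 to 1667 with the minimum of 5 TPM, where fewer genes were tested, and to 4725 with a median ratio over genes of at least 5 TPM in every library, which also took the members' median from 0.27 to 0.18. The cause was not tested for the others.

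Leaving out 1 library at a time gave 2 members higher and 1 to 3 lower as deposited, 39 to 40 higher and 2 lower after scaling, and for all genes 709 to 877 higher and 2637 to 5194 lower as deposited (5194 without vehicle replicate 6). The members' median ran from 0.04 to 0.15 as deposited and from 0.25 to 0.29 after scaling, with excesses over all genes of 0.22 to 0.25 and 0.23 to 0.27. Ratio differences ran from 0.79 to 0.91, 0.54 to 0.66 and 0.35 to 0.44. In 4 cases a member was called in the direction opposite to the sign of its deposited difference: Psmc2 (0.15) and Psmd13 (0.12) with median-of-ratios scaling, and Psmc3 (-0.11) and Psmf1 (-0.0897) without the ribosomal-RNA-type models. A median ratio over tested genes, added after seeing the data, called 38 members higher and 2 lower. In a rank-sum test the counts were 3 and 2 as deposited and 39 and 2 after scaling. TPM carries no depth, so no limit of detection can be given for low members such as Psmb11.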
